A study of Homo sapiens with 6 samples.

Results

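The ZNF genes are the entries of the deposited RNA table whose symbol starts with ZNF, and there were 36 of them among 1705 listed genes. Of the 36, 31 are listed as protein coding, and the others are the lincRNA entries ZNF883 and ZNF582-AS1 and the entries ZNF271, ZNF702P and ZNF816-ZNF321P, for which no biotype is listed. RNA was measured in cultures of PC9, a human lung adenocarcinoma cell line with an EGFR exon 19 deletion, and of PC9-GR, a gefitinib-resistant line derived from it that carries the same deletion. Each group has 3 libraries from independent cultures. Gefitinib inhibits the EGFR kinase. PC9 is the parental line, and no drug treatment of it is labelled. PC9-GR was selected in gefitinib rising from 0.5 to 10 µM and maintained at 10 µM, then grown for 7 days without the drug before RNA extraction. Each group is 1 cell line, so the p-values measure the spread between cultures of a line and not between resistant lines.

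ZNF proteins are mostly C2H2 zinc finger proteins, in which a zinc ion held by 2 cysteines and 2 histidines folds each finger, and arrays of fingers read DNA sequence. The largest subgroup carries a KRAB domain, which recruits the corepressor TRIM28 and, through it, enzymes that place repressive histone marks, often at transposable elements. Many KRAB zinc finger genes lie in clusters on chromosome 19 that arose by repeated duplication. A smaller subgroup carries a SCAN domain, through which the proteins pair with each other.

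The table is a selection made by the authors on the same 6 libraries. The listed log2 ratios, higher or lower, all exceed 1 in size (the closest to it is 1.0002), and the listed p-values reach 0.04965 at most, so no test below is independent evidence that a gene differs. The values are FPKM, fragments scaled by transcript length and by the size of the library. They are per length, so levels can be compared between genes, and the sequencing depth behind them is unknown. The lowest entry, 0.001 FPKM, was read as the floor of the table. Within a group the libraries correlated at 0.977 or more (Pearson's r across listed genes on the log2(FPKM + 1) scale). None of the 8 epithelial, 5 fibroblast, 4 haematopoietic and 3 endothelial markers in the lists used is among the listed genes, so the labelled epithelial type could not be checked. None of the 34 listed partners of KRAB repression, TRIM28 among them, is in the table either, and their levels were not analysed here.

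The listed ZNF entries were mostly lower in the resistant cells. By mean FPKM 30 of the 36 were lower in PC9-GR and 6 were higher, whereas 48.9% of all 1705 listed genes were lower. The 30 lower entries include all 17 on chromosome 19 and all 6 on chromosome 18. Of the 13 on other chromosomes, 7 were lower and 6 higher. In bulk RNA, fewer cells that express a gene and less RNA per cell cannot be told apart.

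A gene was tested if 3 or more libraries reached 1 FPKM. The test was limma's moderated test on log2(FPKM + 1), fitted over the whole table, two-sided, with Benjamini-Hochberg adjustment and a threshold of 0.05. Of the 36 ZNF entries, 26 passed the filter on low values and 10 did not. ZNF804A, ZNF469 and ZNF608 passed through their PC9-GR libraries alone. ZNF354C, ZNF44, ZNF85, ZNF582 and ZNF816-ZNF321P passed through their PC9 libraries alone. For these entries the filter and the test rest on the same high group, so their p-values are descriptions. Limma called 21 of the 26 lower and 5 higher. Over all 1207 genes tested, 51.3% were called lower and 48.4% higher. Nearly every tested gene of this preselected table was called (99.7%), so the direction, not the call, is what sets ZNF genes beside the rest. The median log2 difference was -0.92 over the 26 ZNF entries and -0.63 over the 1207 genes, which fall into a higher and a lower mode with few genes between. The libraries of the 2 groups did not overlap for any of the 36 ZNF entries, against 94.8% of listed genes without overlap.

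**Figure D1:**
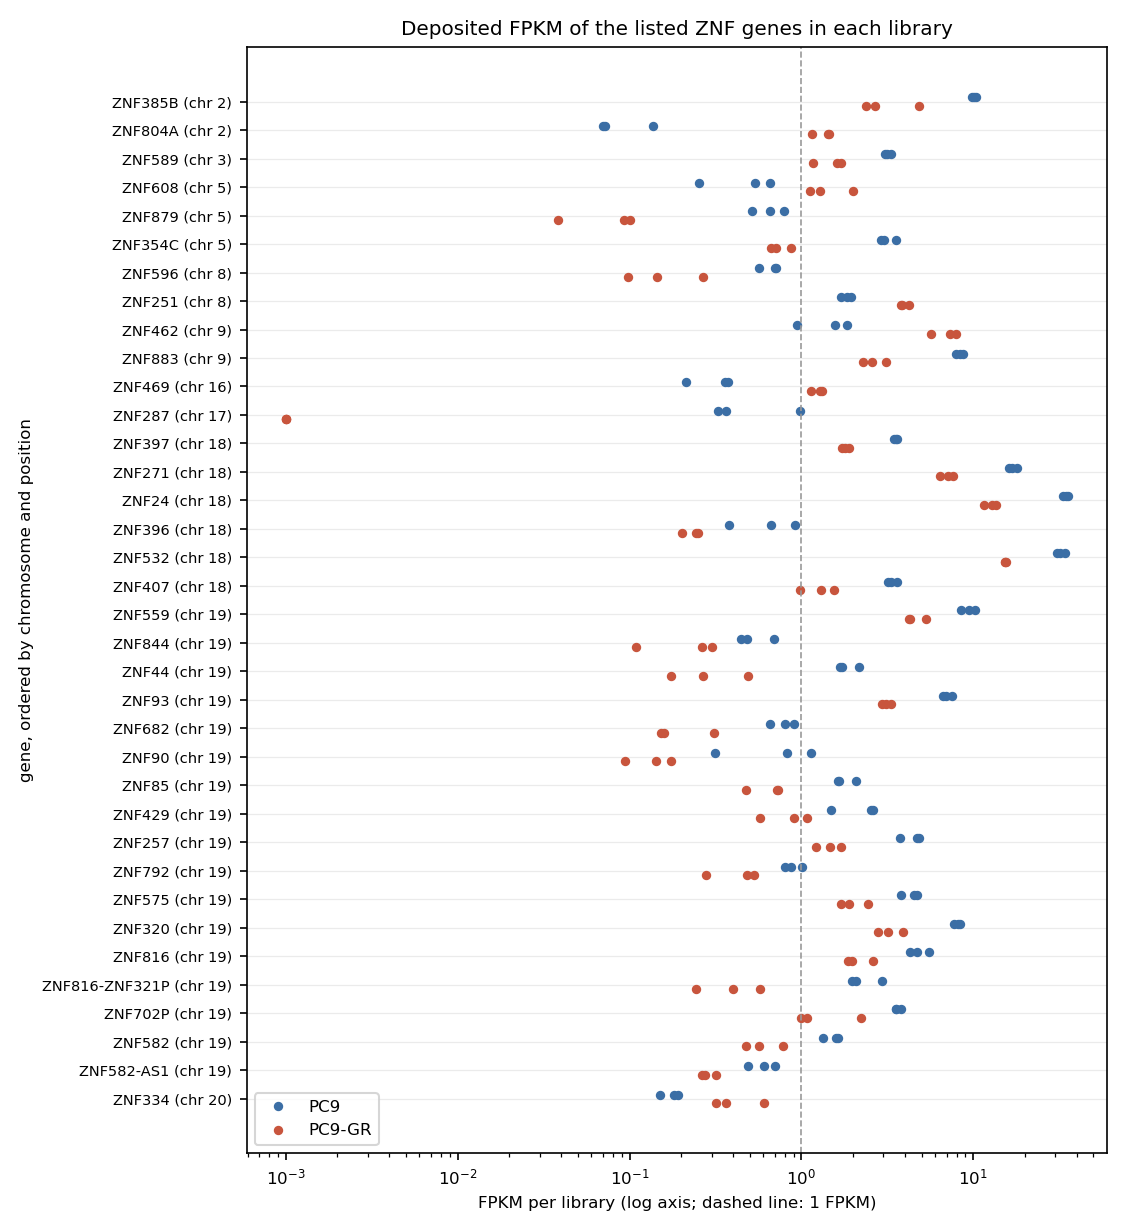
FPKM of the 36 listed ZNF genes, 1 point per library (blue PC9, red PC9-GR, 3 each), on a log axis, ordered by chromosome and position. The red points lie to the left of the blue points for 30 genes and to the right for 6, and the 3 PC9-GR libraries of ZNF287 sit at the floor of 0.001 FPKM.

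The scale of the libraries moved the size of these differences but not their sign. Over the listed genes alone, the FPKM totals were 29560 ± 1116 in PC9 and 16941 ± 212 in PC9-GR (SD, n = 3). When the totals were set equal, the median gene moved up by 0.62 on the log2 scale, and limma called 13 ZNF entries lower and 5 higher. The 8 ZNF genes that lost their lower call were ZNF589, ZNF397, ZNF559, ZNF429, ZNF575, ZNF816, ZNF702P and ZNF582. Without HSP90AA1 in the totals, a scaling chosen after the data were seen, 19 ZNF entries were called lower, and ZNF589 and ZNF397 were the 2 that lost the call. With median-ratio scaling, where the median gene moved down by 0.23, 21 were called lower and 2 higher, and ZNF608, ZNF804A and ZNF469 fell below the filter. The ZNF share of calls that were lower was 80.8% as deposited, 72.2% with equal totals and 91.3% with median-ratio scaling. The same shares over all genes were 51.5%, 39.1% and 53.3%. The 21 tested entries with a lower level kept a negative difference under each of these scalings and under quantile normalization.

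**Figure D2:**
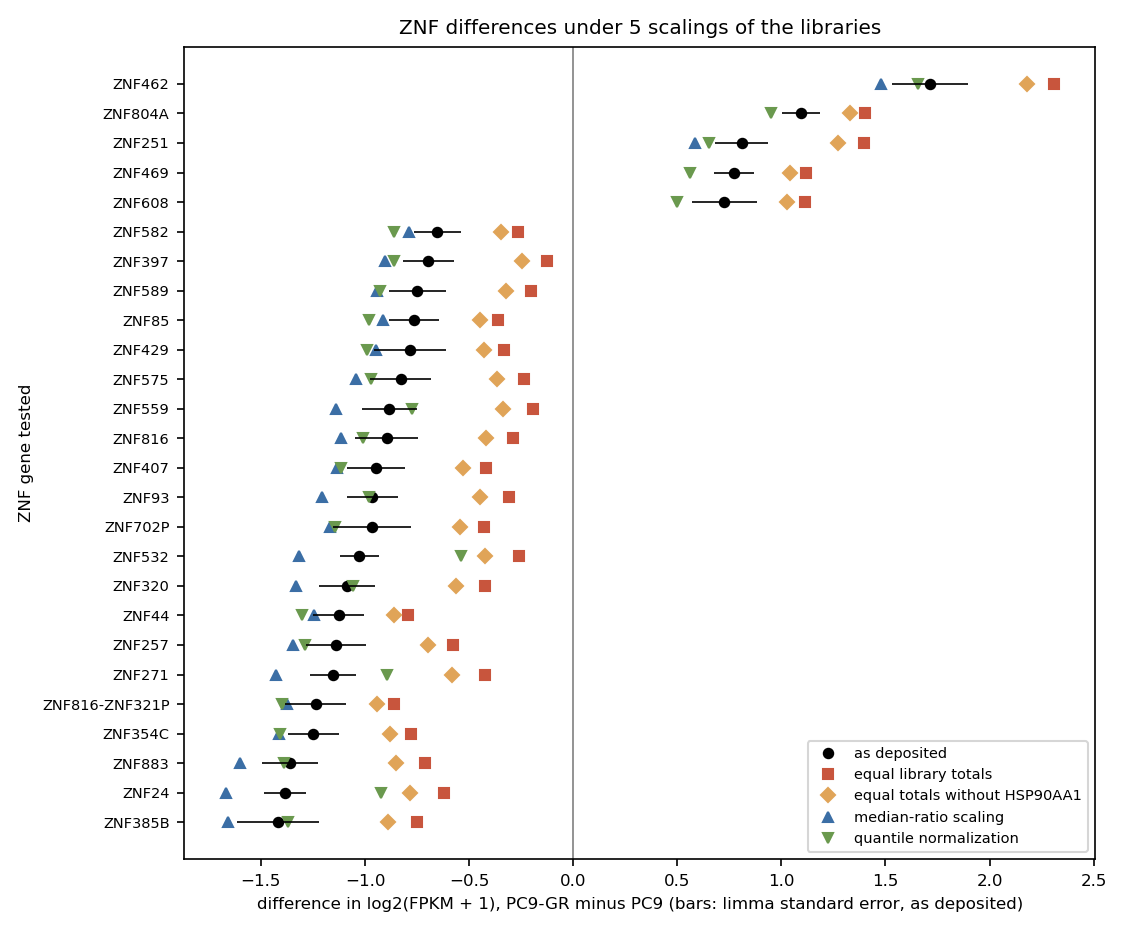
Difference in log2(FPKM + 1), PC9-GR minus PC9, for the 26 tested ZNF genes under 5 scalings of the libraries, with the limma standard error for the values as deposited. Equal totals move each gene to the right and median-ratio scaling, under which 3 higher genes were not tested, to the left, and no plotted gene crosses 0.

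Summed over the 36 entries, ZNF FPKM was lower in each PC9-GR library than in any PC9 library. The sums were 173.0, 178.4 and 180.5 FPKM in the PC9 libraries and 87.7, 80.2 and 85.2 FPKM in the PC9-GR libraries, a ratio of 2.10 between the means. The 6 chromosome 18 genes had the highest sum of the 3 sets compared here, with 91.3 ± 3.23 FPKM in PC9, against 38.4 ± 1.63 FPKM in PC9-GR. The 17 chromosome 19 entries summed to 55.0 ± 2.34 FPKM in PC9, against 22.2 ± 1.02 FPKM in PC9-GR. The 13 entries on other chromosomes came to 31.0 ± 0.679 and 23.9 ± 1.64 FPKM (SD, n = 3), the smallest change of the 3 sets. Over all listed genes the FPKM total fell 1.74-fold. The falls of the 3 ZNF sets were 2.38-fold (chromosome 18), 2.48-fold (chromosome 19) and 1.30-fold (other chromosomes). These sums are descriptions with no test.

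**Figure D3:**
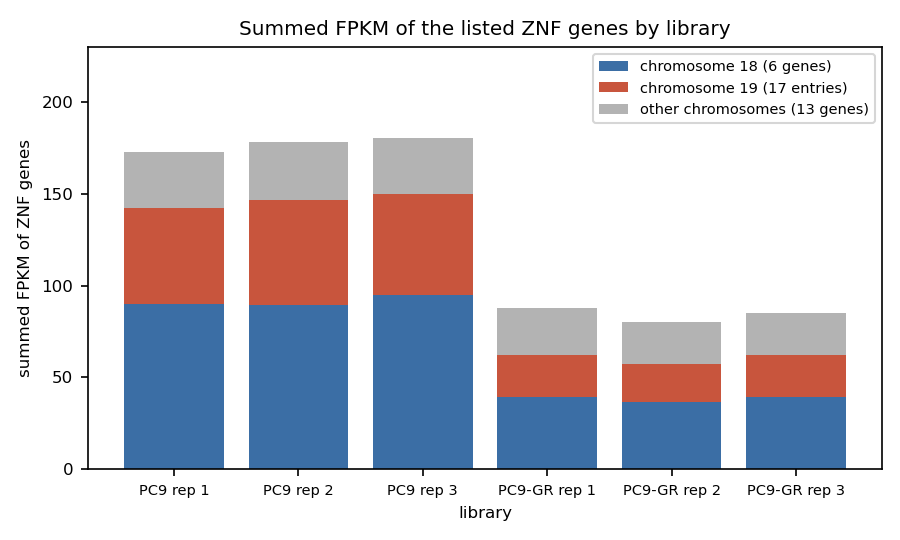
Summed FPKM of the listed ZNF genes in each of the 6 libraries, stacked by chromosome 18, chromosome 19 and the other chromosomes. The PC9 bars reach 173.0 to 180.5 FPKM and the PC9-GR bars 80.2 to 87.7 FPKM, and the chromosome 18 and 19 parts shrink the most.

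GENCODE 29 has 515 protein coding genes with a ZNF symbol. Of these, 31 are in the table (6.02%), beside 6.72% of all coding genes. Chromosome 19 holds 249 of the 515 (48.3%). Of those 249, 14 are in the table (5.62%), beside 6.66% of all coding genes of that chromosome. The other ZNF genes were not analysed here. With 3 entries that GENCODE 29 or the table does not class as coding (ZNF582-AS1, ZNF702P and ZNF816-ZNF321P), 17 of the 117 listed entries on chromosome 19 carry a ZNF symbol. All 17 were lower in PC9-GR by mean FPKM, by 2.03-fold to 5.98-fold. Of the 100 other listed entries of the chromosome, 53 were higher and 47 lower. The genes that flank the ZNF loci went both ways: of the 15 nearest other listed genes on either side, 8 were lower and 7 higher. All 12 chromosome 19 ZNF entries that passed the filter were called lower, against 32 of 66 for the other tested entries there. Among these 12, ZNF44, ZNF85, ZNF582 and ZNF816-ZNF321P passed through their PC9 libraries alone, so the filter had set their direction. With equal totals, 6 of these 12 lost the call.

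**Figure D4:**
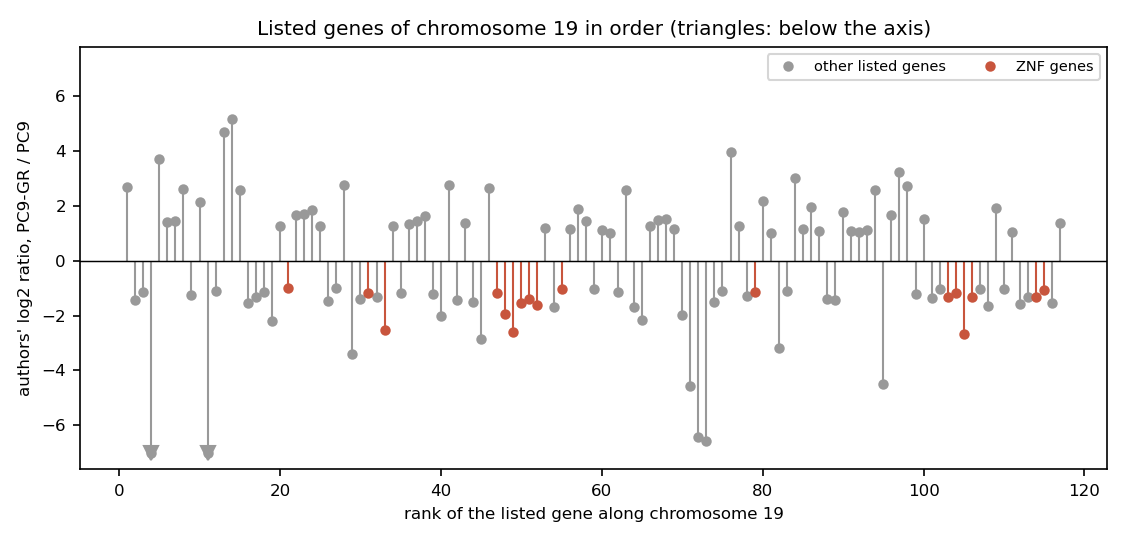
Authors' log2 ratio of PC9-GR to PC9 for the 117 listed entries of chromosome 19, in their order along the chromosome (ZNF genes red, others grey; triangles mark 2 values below the axis). The 17 red points lie below 0, and the 6 consecutive ones in the middle are ZNF93 to ZNF257, with grey genes on both sides that go up and down.

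The longest unbroken stretch is a set of 6 KRAB zinc finger genes, ZNF93, ZNF682, ZNF90, ZNF85, ZNF429 and ZNF257, at 20011721 to 22274282 of chromosome 19 in the table, whose genome build is not named. In the RefSeq order of GRCh38.p14, 19 coding ZNF genes lie from the first to the last of these, among 20 coding genes, and 6 of the 19 are listed. No other listed gene lies inside the stretch or within 1 Mb of it. The nearest ones, GDF15 at 1511735 bases before ZNF93 and WTIP at 12697591 bases after ZNF257, were higher. Neither is a close neighbour.

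The promoters of 5 of these genes are shown because their genes fell together by mean FPKM and their sequences are alike. Each is the 300 bases from 250 before to 50 after the transcript start, from RefSeq on GRCh38.p14, plus strand: chr19:19900696-19900995 (ZNF93), chr19:20077750-20078049 (ZNF90), chr19:20923001-20923300 (ZNF85), chr19:22052234-22052533 (ZNF257), chr19:21505352-21505651 (ZNF429). Capitals mark CTGAAAAGGCTG and CTGTCACTCAGG, the longest runs of bases that all 5 share on the printed strand (12 bases each), and each CCAAT on either strand, the box read by the factor NF-Y.
ZNF93: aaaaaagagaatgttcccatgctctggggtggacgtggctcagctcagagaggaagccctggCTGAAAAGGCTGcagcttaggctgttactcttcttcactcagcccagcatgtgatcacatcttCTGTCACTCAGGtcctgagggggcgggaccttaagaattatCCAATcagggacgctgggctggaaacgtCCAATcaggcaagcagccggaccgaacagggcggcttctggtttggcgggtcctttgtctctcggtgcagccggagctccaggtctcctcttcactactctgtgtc
ZNF90: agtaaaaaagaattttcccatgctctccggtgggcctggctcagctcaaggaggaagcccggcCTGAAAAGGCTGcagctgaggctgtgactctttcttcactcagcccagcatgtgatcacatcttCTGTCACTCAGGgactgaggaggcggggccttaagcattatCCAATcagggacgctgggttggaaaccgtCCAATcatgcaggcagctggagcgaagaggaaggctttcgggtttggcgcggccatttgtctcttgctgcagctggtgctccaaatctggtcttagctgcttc
ZNF85: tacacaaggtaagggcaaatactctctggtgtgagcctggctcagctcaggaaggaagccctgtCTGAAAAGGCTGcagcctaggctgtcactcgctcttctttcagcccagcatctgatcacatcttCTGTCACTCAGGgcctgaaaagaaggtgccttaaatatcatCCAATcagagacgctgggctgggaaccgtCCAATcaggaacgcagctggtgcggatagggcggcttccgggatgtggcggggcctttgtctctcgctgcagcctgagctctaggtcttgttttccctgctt
ZNF257: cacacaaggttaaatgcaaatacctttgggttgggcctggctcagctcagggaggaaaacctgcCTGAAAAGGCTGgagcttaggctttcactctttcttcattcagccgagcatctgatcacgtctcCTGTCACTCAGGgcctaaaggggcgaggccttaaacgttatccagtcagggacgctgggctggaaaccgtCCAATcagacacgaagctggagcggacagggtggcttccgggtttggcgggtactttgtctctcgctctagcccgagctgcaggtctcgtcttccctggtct
ZNF429: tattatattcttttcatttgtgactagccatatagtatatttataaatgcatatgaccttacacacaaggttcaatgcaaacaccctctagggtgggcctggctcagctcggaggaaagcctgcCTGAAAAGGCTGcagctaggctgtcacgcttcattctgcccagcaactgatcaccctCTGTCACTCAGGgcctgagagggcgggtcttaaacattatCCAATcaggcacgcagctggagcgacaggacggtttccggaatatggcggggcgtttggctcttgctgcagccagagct

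Aligned in pairs, these 5 promoters were 71.5% to 85.4% identical over 253 to 297 aligned columns. ZNF93 and ZNF90 were the most alike and ZNF93 and ZNF429 the least. The promoter of ZNF682 was 62.1% to 68.6% identical to the 5 in its better matching RefSeq entry. CTGAAAAGGCTG starts at base 63 to 65 of the window in 4 of them and at base 125 in ZNF429. CTGTCACTCAGG starts at base 126 to 129 in those 4 and at base 182 in ZNF429. On either strand, the first run occurs in 17 of 35116 RefSeq promoters (0.0484%), of which 16 belong to ZNF symbols. The second occurs in 38 (0.108%), of which 30 belong to ZNF symbols, ZNF844 among them. Of those ZNF symbols, 11 with the first run and 24 with the second are not in the table, such as ZNF91 and ZNF486, which have both. The runs therefore also mark promoters of ZNF genes whose levels are unknown here.

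**Figure D5:**
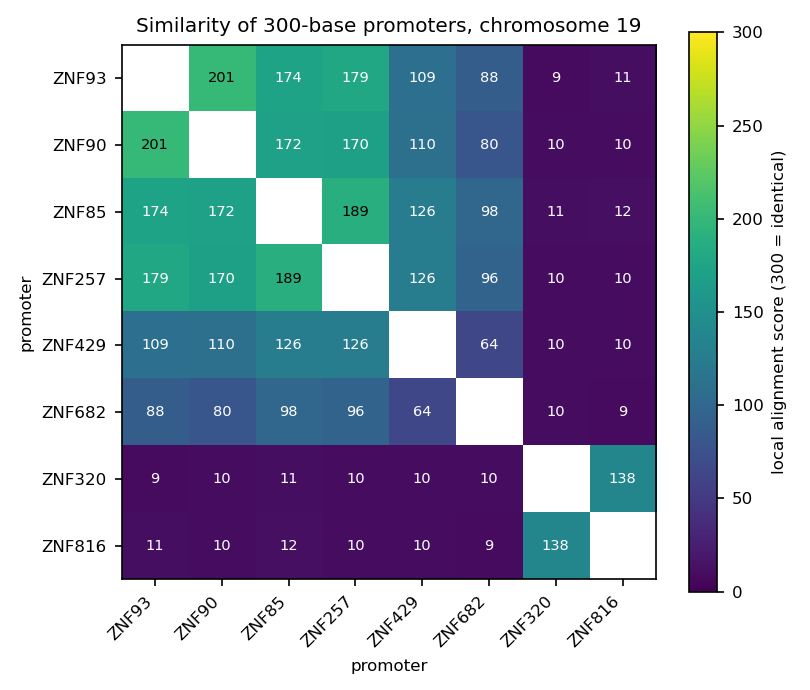
Local alignment score between the 300-base RefSeq promoters of 8 chromosome 19 ZNF genes (match 1, mismatch -1, so identical promoters would score 300). ZNF93, ZNF90, ZNF85 and ZNF257 score 170 to 201 with each other, ZNF429 and ZNF682 less, and ZNF320 with ZNF816 form a separate pair at 138.

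RefSeq promoters were found for 27 of the 36 symbols, with 41 entries in all. Those without an entry are ZNF271, ZNF396, ZNF702P, ZNF251, ZNF582-AS1, ZNF596, ZNF559, ZNF462 and ZNF469. Motifs were searched on both strands. The box CCAAT was found in 21 of the 41 promoters (51.2%) and in 34.6% of all promoters, and all 6 genes of the stretch have it. The ETS-type motif CCGGAAG was found in 12 of 41 (29.3%), or 11 of the 27 genes, and in 10.3% of all promoters. The entries are not all distinct: ZNF816 and ZNF816-ZNF321P have the same window and the 2 windows of ZNF320 overlap, and these are 4 of the 12. These 4 also hold CCAAT, as do the 2 overlapping windows of ZNF287, so the 21 CCAAT entries are not all distinct either. CCAAT was found in 18 of the 27 genes. No share per gene was computed for all promoters. The GC box GGGCGG was found in 48.8% and 44.95%, and TATAAA in 14.6% and 11.5%. The cyclic AMP response element TGACGTCA was in 0 of 41 and in 1.85% of all. No motif in this set contains another. Promoters of the 6-gene stretch held a median of 9 CG dinucleotides (range 9 to 16), against 21.5 for the other members and 14 for all promoters. These are matches of letters and show no binding.

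ZNF93, which binds and represses LINE-1 retrotransposons, was the most abundant listed gene of the stretch. It measured 6.90, 6.69 and 7.53 FPKM in PC9, against 2.93, 3.34 and 3.09 FPKM in PC9-GR. The groups were far apart compared with their spread, and limma gave a log2 difference of -0.96 (standard error 0.12, adjusted p = 3.91e-05), which had an adjusted p of 0.0422 with equal totals. ZNF257 measured 3.72, 4.82 and 4.72 FPKM in PC9, against 1.22, 1.46 and 1.70 FPKM in PC9-GR. It fell 3.03-fold (limma log2 difference -1.14, standard error 0.15, adjusted p = 3.93e-05). ZNF429 measured 1.49, 2.59 and 2.55 FPKM in PC9, against 0.577, 1.08 and 0.900 FPKM in PC9-GR. Its first PC9 library was low and came close to the highest PC9-GR library, and its adjusted p, 0.0014, is the highest of the called ZNF genes. ZNF85 measured 1.63, 2.09 and 1.66 FPKM in PC9, against 0.475, 0.719 and 0.734 FPKM in PC9-GR, a 2.79-fold fall (limma adjusted p = 0.000156).

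ZNF682 and ZNF90 stayed below the filter. ZNF682 had 0.654, 0.804 and 0.903 FPKM in PC9, against 0.153, 0.159 and 0.309 FPKM in PC9-GR. ZNF90 had 0.312, 1.14 and 0.820 FPKM in PC9, against 0.0940, 0.142 and 0.173 FPKM in PC9-GR, and the PC9 libraries of ZNF90 varied most of the stretch. For each of the 10 ZNF entries below the filter the two-sided exact permutation test over libraries gave p = 0.1, the smallest that 3 against 3 allows. Without the filter limma called 9 of these 10 lower and ZNF334 higher, with 810 lower and 846 higher calls over all 1705 genes. Genes of this stretch are close copies of each other, and how the authors assigned reads that fit several copies is not given in the sources used here, so the split of reads between them is uncertain.

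A further set on the long arm of chromosome 19 holds ZNF320 and the entries ZNF816, ZNF816-ZNF321P and ZNF702P, the last 3 of which share the table locus 53430387 to 53541151. How reads were divided among these 3 is unknown, so their values are uncertain, and GENCODE 29 gives the identifier listed as the readthrough ZNF816-ZNF321P to ZNF321P. ZNF320, a KRAB zinc finger gene with its own locus at 53367042 to 53400946, measured 8.16, 8.32 and 7.73 FPKM in PC9, against 3.89, 2.78 and 3.21 FPKM in PC9-GR. It fell 2.45-fold (limma log2 difference -1.09, standard error 0.14, adjusted p = 3.34e-05). ZNF816 fell 2.26-fold from 4.85 ± 0.657 to 2.14 ± 0.391 FPKM (limma adjusted p = 0.000244). The readthrough entry went from 2.33 ± 0.548 to 0.407 ± 0.167 FPKM. ZNF702P was at 3.64 ± 0.142 FPKM in PC9 and at 0.998, 1.07 and 2.21 FPKM in PC9-GR, where replicate 3 stood above the others. ZNF816 and the readthrough share a RefSeq promoter, and it and the better matching promoter of ZNF320 were 71.7% identical over 304 aligned columns.

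On the short arm, ZNF44 showed the largest fold among the called lower ZNF genes. This KRAB zinc finger gene measured 1.73, 1.67 and 2.16 FPKM in PC9, against 0.268, 0.174 and 0.489 FPKM in PC9-GR. It fell 5.98-fold (limma log2 difference -1.13, standard error 0.12, adjusted p = 1.43e-05). Its neighbour ZNF844, also a KRAB gene, had 0.540 ± 0.137 FPKM in PC9, against 0.225 ± 0.101 FPKM in PC9-GR and was below the filter. ZNF559, the most abundant of the listed ZNF entries of the chromosome, went from 9.36 ± 0.880 to 4.62 ± 0.614 FPKM (limma adjusted p = 0.000113, and 0.216 with equal totals). It lies at the edge of the authors' selection, with a log2 ratio of -1.0013 in the authors' deposited table.

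ZNF575, ZNF582 and ZNF792 lie apart from these sets. ZNF575 fell from 4.33 ± 0.476 to 2.01 ± 0.386 FPKM (limma adjusted p = 0.000359). ZNF582, a KRAB gene whose promoter is often methylated in cervical neoplasia, fell from 1.52 ± 0.163 to 0.607 ± 0.156 FPKM (limma adjusted p = 0.000307). The antisense entry ZNF582-AS1, which lies next to it in the table, had 0.703, 0.490 and 0.606 FPKM in PC9, against 0.275, 0.319 and 0.263 FPKM in PC9-GR. The library kit keeps strand, but the authors' strand setting is not given in the sources used here. ZNF792 was below the filter, with 0.894 ± 0.105 FPKM in PC9, against 0.432 ± 0.134 FPKM in PC9-GR.

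On chromosome 18 the ZNF genes were lower together with their neighbours. Of the 102 other listed entries of that chromosome, 92 were lower, and all 7 of the nearest other listed genes beside the ZNF loci were lower. ZNF397, ZNF271, ZNF24 and ZNF396 lie side by side at 32820993 to 32957301 in the table, and all 13 other listed entries within 1 Mb of them were lower. GENCODE 29 places 9 coding ZNF genes on this chromosome, of which 5 are listed. Of all its coding genes 33.5% are listed.

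ZNF24, a SCAN domain factor described as a repressor of VEGFA, had the highest level of the 36. It measured 33.3, 34.6 and 35.5 FPKM in PC9, against 12.8, 11.5 and 13.6 FPKM in PC9-GR. Its groups were separated by many times their spread (2.73-fold fall, limma log2 difference -1.38, standard error 0.10, adjusted p = 1.33e-06). ZNF532, known as a fusion partner of NUTM1 in NUT carcinoma, measured 32.1, 30.9 and 34.2 FPKM in PC9, against 15.3, 15.4 and 15.4 FPKM in PC9-GR. It fell 2.11-fold (limma adjusted p = 4.76e-06). ZNF24 alone made up 19.4%, and ZNF532 18.3%, of the summed ZNF FPKM in PC9.

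ZNF271, which GENCODE 29 names ZNF271P and classes as a pseudogene, had the next highest level at 16.9 ± 0.939 FPKM in PC9 and fell to 7.05 ± 0.593 FPKM (limma adjusted p = 6.13e-06). ZNF407 fell from 3.37 ± 0.201 to 1.27 ± 0.283 FPKM (limma adjusted p = 9.49e-05). The SCAN domain gene ZNF397 fell from 3.53 ± 0.0569 to 1.80 ± 0.0837 FPKM (limma adjusted p = 0.000316, and 0.361 with equal totals). ZNF397 shares its table locus with the lincRNA RP11-158H5.7, and ZNF407 with LINC00909. ZNF396, another SCAN domain gene, had 0.654 ± 0.272 FPKM in PC9, against 0.231 ± 0.0264 FPKM in PC9-GR and was below the filter. Without the chromosome 18 genes, a choice made after the data were seen, limma called 16 ZNF entries lower and 5 higher of 21 tested, beside 536 lower and 578 higher of 1118 genes.

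The lower ZNF genes elsewhere lie on chromosomes 2, 3, 5, 8, 9 and 17. ZNF385B, at 180306708 to 180726232 of chromosome 2, measured 10.4, 9.77 and 10.1 FPKM in PC9, against 4.83, 2.66 and 2.36 FPKM in PC9-GR. It fell 3.07-fold (limma log2 difference -1.42, standard error 0.20, adjusted p = 7.02e-05), and the first PC9-GR library stood above the other 2. ZNF883, listed as a lincRNA on chromosome 9, measured 8.37, 8.75 and 7.95 FPKM in PC9, against 2.29, 2.56 and 3.11 FPKM in PC9-GR, a 3.15-fold fall (limma adjusted p = 7.19e-06). On chromosome 3 the KRAB gene ZNF589 fell 2.12-fold from 3.18 ± 0.127 FPKM (limma adjusted p = 0.000403, and 0.2 with equal totals).

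The KRAB genes ZNF879 and ZNF354C are neighbours on chromosome 5, at 178450752 to 178510538 in the table, and both were lower. ZNF354C measured 2.90, 3.02 and 3.55 FPKM in PC9, against 0.713, 0.670 and 0.864 FPKM in PC9-GR. It fell 4.22-fold (limma log2 difference -1.25, standard error 0.12, adjusted p = 7.53e-06). It shares its locus with the entry RP11-281O15.7, which was lower too. ZNF879 had 0.518, 0.658 and 0.790 FPKM in PC9, against 0.101, 0.0383 and 0.0928 FPKM in PC9-GR, an 8.46-fold lower mean at a level below the filter. The KRAB gene ZNF596 on chromosome 8 had 0.658 ± 0.0794 FPKM in PC9, against 0.169 ± 0.0871 FPKM in PC9-GR. ZNF287, which has both a SCAN and a KRAB domain, had PC9 values of 0.326, 0.983 and 0.365 FPKM. All its PC9-GR entries are at the table's floor, so no fold is given.

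The 6 higher ZNF genes lie on chromosomes 2, 5, 8, 9, 16 and 20, each on its own. ZNF462, a nuclear protein whose loss causes Weiss-Kruszka syndrome, was the most abundant of them. It measured 1.57, 1.83 and 0.944 FPKM in PC9, against 7.93, 5.70 and 7.33 FPKM in PC9-GR. It rose 4.83-fold (limma log2 difference 1.71, standard error 0.18, adjusted p = 1.08e-05), the largest fitted change of the 26 tested ZNF genes on this scale. With a pseudocount of 0.1 the log2 difference was 2.23 for ZNF462 and larger in size for ZNF804A (2.91), ZNF44 (-2.32) and ZNF816-ZNF321P (-2.29).

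ZNF804A, a gene at a schizophrenia risk locus, was near silent in PC9 at 0.0697, 0.0724 and 0.138 FPKM. In PC9-GR it reached 1.44, 1.15 and 1.42 FPKM, a 14.3-fold rise (limma log2 difference 1.09, standard error 0.09, adjusted p = 2.82e-06). The size of that fold is uncertain because the PC9 level is so low. Its RefSeq promoter holds 36 CG dinucleotides in 300 bases. ZNF469, mutated in brittle cornea syndrome, rose 3.94-fold from 0.213, 0.357 and 0.376 FPKM in PC9 to 1.32, 1.28 and 1.13 FPKM in PC9-GR (limma adjusted p = 3.25e-05).

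ZNF608 rose from 0.255, 0.535 and 0.660 FPKM in PC9 to 1.29, 2.00 and 1.11 FPKM in PC9-GR, with wide spread in both groups (limma adjusted p = 0.00119). ZNF251, a KRAB gene, rose 2.16-fold from 1.84, 1.70 and 1.95 FPKM in PC9 to 3.79, 4.22 and 3.85 FPKM in PC9-GR (limma adjusted p = 0.000147). ZNF334, also a KRAB gene, had 0.174 ± 0.0209 FPKM in PC9, against 0.431 ± 0.154 FPKM in PC9-GR and was below the filter. The 5 called higher genes summed to 4.17 ± 0.290 FPKM in PC9, against 14.99 ± 0.722 FPKM in PC9-GR (SD, n = 3).

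Other zinc finger families in the table went both ways. Of 15 listed entries from families such as ZBTB, ZFP, KLF, ZEB and SNAI, limma called 9 lower and 5 higher, and ZSCAN18 was not called (adjusted p = 0.072), with 1.57, 9.88 and 5.13 FPKM in the PC9-GR libraries. Over the 1207 genes tested, 51.3% were called lower and 48.4% higher, with a median log2 difference of -0.63. The median of the 15 entries was -0.82. The largest falls were those of ZBED2, whose finger is of the BED type and not C2H2, TSHZ1 and OVOL1, with limma log2 differences of -1.73, -1.46 and -1.43. The largest rises were those of ZEB2, ZEB1 and SNAI1, repressors active in epithelial-mesenchymal transition, with limma log2 differences of 1.94, 1.77 and 1.05. TSHZ1 lies on chromosome 18. On chromosome 19 the list holds ZFP30 and ZFP28, which were called lower, and ZSCAN18, whose mean was higher in PC9-GR without a call. ZFP90 and ZKSCAN3, on other chromosomes, were called higher, and the libraries of ZFP90 overlap between the groups. The 3 further entries of other zinc finger types, ZFYVE21, ZCCHC2 and ZDHHC3, were called lower, and ZCCHC2 lies on chromosome 18 like TSHZ1.

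The authors' deposited table gives a q-value of 0.05 or more to 2 of the 36 entries, ZNF844 (0.0642) and ZNF582-AS1 (0.0797), and to 11.6% of all listed genes. Of the 36, 5 have an absolute log2 ratio under 1.1 there.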

How the data were processed

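RNA was measured in 3 PC9 and 3 PC9-GR libraries prepared by an Agilent SureSelect method that keeps strand, per the labels' protocols. The authors used TopHat and Cufflinks, per the submitters' processing notes. For versions, build, annotation and strand setting, nothing is stated in these sources. The file deposited by the authors gives an FPKM value for each library, and the authors' ratio, log2 ratio, p-value and q-value of PC9-GR to PC9, per the file headers. It is a selection of 1705 genes without counts, so depth is unknown.

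FPKM was used as deposited. Folds are ratios of mean FPKM. Tests were two-sided in limma 3.58.1 (R 4.3.3) on log2(FPKM + 1) with a variance trend and group as the only term, fitted on the genes that 3 or more libraries measured at 1 FPKM or above, and a log2 difference on that scale understates the change of low genes. The step was tested on simulated data in which most genes did not change, unlike this preselected table. Members below the filter had an exact permutation test (scipy 1.17.1).

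Promoters and gene order came from RefSeq (GRCh38.p14), matched by symbol, and gene types from GENCODE 29, which holds all 36 identifiers. Coordinates of the table were not mixed with these. Promoters were aligned locally with Biopython 1.88 (match 1, mismatch -1, gap opening -3, extension -0.5). No protein sequences were used. The members and lists were chosen with earlier results of these data known.

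The genes named are up to 10 called ZNF genes per direction by fitted change, the 6 with the highest group mean, those at the floor in a group, those that lose a call, neighbours within 1 Mb, uncertain entries, and up to 3 called genes per direction in the other zinc finger lists. Others were named after their values were seen.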

Additional observations from a re-analysis of the deposited data

How the results depend on the processing

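Of the 26 tested ZNF entries, each kept its direction in every alternative in which it could be tested. With equal library totals ZNF genes called lower numbered 13, and ZNF genes called higher stayed at 5. With median-ratio scaling 2 ZNF genes were called higher. With a filter at 5 FPKM, which tests fewer genes, 8 ZNF genes were called lower and 1 higher, and over all genes 393 were called lower and 234 higher. Without a filter and with a filter at 0.3 FPKM, all 36 entries were called, 30 lower and 6 higher, as were nearly all genes (810 lower and 846 higher of 1705, and 782 lower and 819 higher of 1623). A pseudocount of 0.1, quantile normalization, no variance trend and leaving out patch scaffolds gave 21 lower and 5 higher. Leaving out each library in turn gave 21 lower and 5 higher ZNF genes each time, with 614 to 618 lower and 578 to 581 higher over all genes. The genes tested stayed those chosen on all 6 libraries, and groups that do not overlap cannot change direction in this way. The libraries share only replicate numbers: the deviations of same-numbered libraries correlated at -0.098, 0.082 and 0.164 across genes. A fit with the replicate block called 21 ZNF genes lower and 5 higher, with 619 lower and 586 higher over all genes, and changed no ZNF call. With depth unknown, the precision of the entries below 1 FPKM cannot be judged beyond the spread of 3 libraries.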

Other observations

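Entries of chromosome 19 that are not listed as protein coding were mostly lower, a count made after the data were seen. Of 16 such entries without a ZNF symbol, 13 were lower by mean FPKM (81.3%). Beside the ZNF loci the share was 87.5%, but those entries are part of the 16 and the remainder was not counted apart. Whether the share depends on the distance to a ZNF locus was not tested. Of the 8 within 1 Mb of a ZNF locus, 7 were lower, and the exception, CTD-2369P2.8, was called higher by limma (adjusted p = 5.34e-05). Coding genes within the same distance went both ways, with 12 of 26 lower. Among entries that are not coding on other chromosomes, 164 of 309 were lower (53.1%).

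The lower entries include CTD-3099C6.9, which went from 3.03 ± 0.355 to 1.51 ± 0.222 FPKM (SD, n = 3), and CTC-359D24.3, between ZNF844 and ZNF44, which went from 3.06 ± 0.540 to 1.27 ± 0.271 FPKM. The limma adjusted p was 0.000725 and 0.000413. These entries carry clone names only, and whether their reads come from neighbouring ZNF transcripts was not tested.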
